A study of Mus musculus with 12 samples.

Results

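The nuclear genes for subunits of the oxidative phosphorylation system were followed in T cells of the mouse spleen. They were taken by name: symbols beginning Ndufa, Ndufb, Ndufc, Ndufs, Ndufv, Uqcr, Cox4i, Cox5, Cox6, Cox7, Cox8 or Atp5, with Sdha to Sdhd and Cyc1, leaving out pseudogenes, Rik clones and Ndufaf assembly factors. That gave 86 genes of 24351 gene symbols, of which 84 belong to the 5 complexes and 2, Atp5s and Atp5sl, share only the name. RNA-seq libraries came from CD4+CXCR5+PD-1+ cells (T follicular helper, TFH) and CD4+CXCR5-PD-1- cells (non-TFH), sorted from spleens of C57BL/6 mice. All mice carried Ets1 flox/flox alleles. Those labelled WT had no Cre, and those labelled KO also carried CD4-cre, which is active from the CD4-expressing stage of thymic development and so acts in CD4 and CD8 T cells alike. Both cell types were sequenced from both genotypes, which gives 4 groups of 3 libraries each. Age and treatment are not given in the labels. The labels also do not say whether libraries of a group came from separate mice, so p-values measure the spread between these libraries, which may be technical.

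Oxidative phosphorylation makes ATP on the inner mitochondrial membrane. Complex I takes electrons from NADH and complex II (succinate dehydrogenase) from succinate, ubiquinone carries them to complex III, cytochrome c carries them to complex IV, and the proton gradient that builds up drives ATP synthase. Resting T cells keep mitochondrial content low, and activated T cells, TFH cells among them, enlarge their respiratory chain when they grow and divide. A few subunits of complexes I, III, IV and ATP synthase are encoded in mitochondrial DNA. None of those 13 genes was analysed here, so every value concerns the nuclear part.

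Levels are FPKM, fragments per kilobase of transcript and per unit of mapped fragments, deposited by the authors and rescaled here so that the median gene matched between libraries. A change is a log2 difference of FPKM + 1 with its standard error (SE) from limma, fitted over 11101 genes or joint entries. A gene is called higher or lower at a Benjamini-Hochberg adjusted p below 0.05 over all of them. Of the 86 genes, 80 passed the filter of 1 FPKM in at least 3 libraries. The level of 4 of them (Ndufb8, Ndufb9, Ndufs5 and Cox6b1) was read together with an overlapping neighbour. Values were missing in WT non-TFH library 1 for Sdha, Sdhd, Cox7b, Cox6b2 and Atp5b, in KO non-TFH library 1 for Ndufa7 and in KO TFH library 1 for Cox8a, and their fits used the remaining libraries. Estimated depth ran from 11.9 M to 15.5 M fragments per library and no libraries were identical. T cell markers were present in all libraries (summed 1550 to 3180 FPKM), and the 5 TFH markers summed to 734 to 1160 FPKM in TFH and 25.6 to 38.1 in non-TFH libraries. Ets1 did not fall in libraries carrying the KO label: in non-TFH cells the WT values were 411, 411 and 402 FPKM and the KO values 413, 409 and 380, and in TFH cells the WT values were 170, 203 and 214 and the KO values 222, 270 and 265. The floxed exons are not given in the labels and a gene-level value also counts the exons that remain, so it does not check the labels. KO below stands for libraries labelled KO.

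Complexes I, III, IV and ATP synthase had their lowest summed level in non-TFH cells of WT mice and their highest in TFH cells labelled KO. The 75 subunit genes with a value in all 12 libraries summed to 7174 ± 146 FPKM in WT non-TFH, 8340 ± 556 in KO non-TFH, 16060 ± 548 in WT TFH and 22960 ± 1480 in KO TFH cells (SD, n = 3 each). TFH cells thus held 2.24 times the non-TFH level in WT and 2.75 times in KO mice, and KO exceeded WT 1.43 times in TFH and 1.16 times in non-TFH cells. In bulk RNA, more cells that carry a transcript and more of it per cell cannot be told apart. For complex I, 35 genes summed to 2231 ± 142 FPKM in WT non-TFH and 5797 ± 259 in WT TFH cells, and reached 8307 ± 550 in KO TFH cells. The 14 ATP synthase genes went from 2398 ± 27.0 to 4536 ± 198 and 6630 ± 459 FPKM in the same 3 groups. No WT TFH library reached the lowest KO TFH library in any of the 4 complexes drawn.

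**Figure D1:**
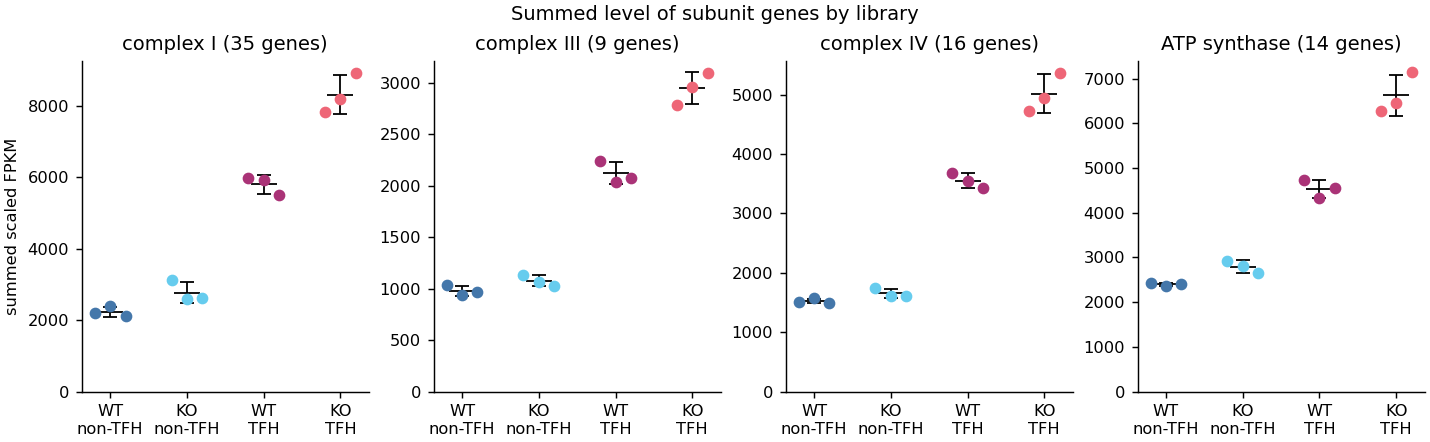
Summed scaled FPKM (y axis, from 0) of the subunit genes of 4 complexes in each of the 12 libraries, with the mean and SD of 3 libraries per group. In every complex the KO TFH libraries lie above the WT TFH libraries, and both lie above all non-TFH libraries.

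Members of one complex were not at one level, although their proteins assemble in fixed ratios. Within complex I in WT TFH cells the means ran from 46.5 FPKM for Ndufs1, a core iron-sulfur subunit, to 786 FPKM for Ndufa3, a small accessory subunit, with a median of 147. In complex IV the ubiquitous subunits were ranked together with Cox7a2l, which is not counted as one of them. Cox7a2l was the highest in WT non-TFH cells (333 FPKM) and the lowest in WT TFH cells (93.0 FPKM), where Cox8a led with 538 FPKM.

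In WT mice the subunit genes were higher in TFH than in non-TFH cells across all 5 complexes. Of the 80 genes tested, 70 were called higher and 3 lower, where 35.2% of all tested genes were called higher and 32.3% lower. The median log2 difference was 1.27, against 0.05 over all tested genes. In the libraries labelled KO, 72 were called higher and 2 lower (33.4% and 33.7% of all genes), with a median of 1.50. The comparisons of cell types and of labels share libraries, so their values are set side by side only.

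The largest called cell-type differences in WT mice belonged to accessory subunits, although the complex I medians were 1.55 for core and 1.47 for accessory subunits. Ndufb2, a membrane-arm subunit of complex I, was at 0, 14.7 and 21.7 FPKM in WT non-TFH and 141, 154 and 90.4 in WT TFH libraries, a log2 difference of 4.15 ± 0.96 (adjusted p = 0.0037, limma) that leans on the single library listed at 0. Ndufa11, also of the membrane arm, stood at 7.08, 9.04 and 8.04 FPKM against 169, 97.6 and 91.0 (3.68 ± 0.54, limma). Uqcrb, which lies near the ubiquinone site of complex III, rose from 108, 93.1 and 91.4 to 507, 491 and 486 FPKM (2.34 ± 0.08, limma). No TFH library overlapped a non-TFH library for these 3 genes. Cox8a of complex IV (2.09), Atp5j, the coupling factor 6 of ATP synthase (2.11), and Sdhb, the iron-sulfur subunit of succinate dehydrogenase (1.71), led their own complexes.

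A few genes went the other way or were not called. Cox7a2l, a factor that tethers complex IV to complex III in supercomplexes and that C57BL/6 mice are known to carry in a shortened form, fell by 1.83 on the log2 scale from WT non-TFH to WT TFH cells (SE 0.07, adjusted p = 2.5e-09, limma). Uqcrc2, a core protein of complex III, fell by 0.30 (SE 0.11, adjusted p = 0.025, limma), from 109, 104 and 81.1 to 75.0, 84.9 and 75.5 FPKM, and its sign turned to 0.07 without scaling. The third gene called lower was Atp5sl (-0.83), which is not a subunit. Uqcrh, the hinge protein of complex III, was not called (-0.08 ± 0.08, adjusted p = 0.38, limma), nor was the c subunit gene Atp5g2 (0.12 ± 0.09, adjusted p = 0.25, limma).

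**Figure D2:**
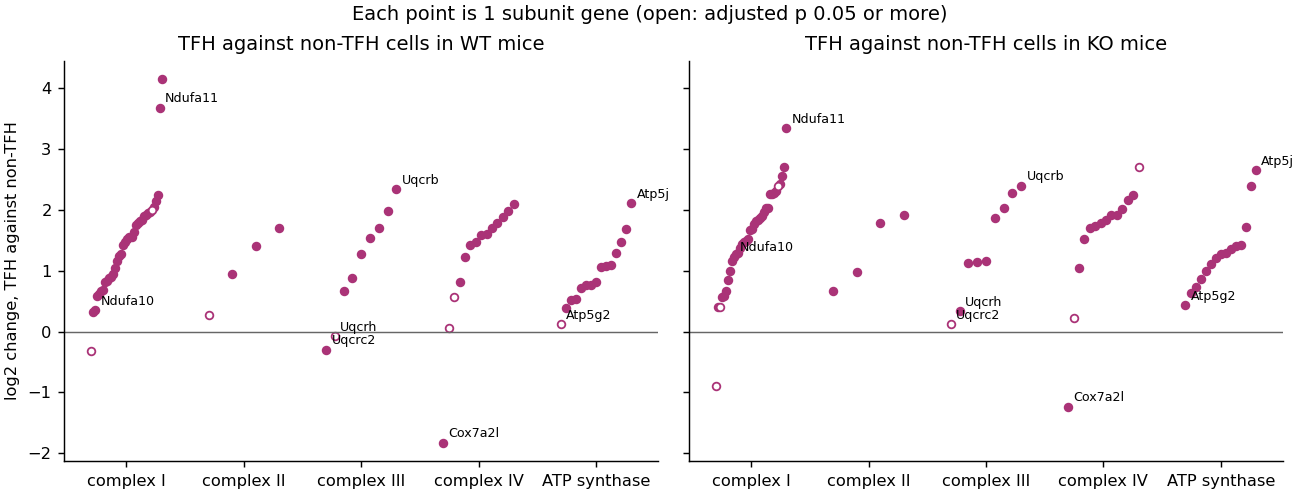
Log2 change of TFH against non-TFH cells (y axis) for each tested subunit gene, by complex, in mice labelled WT (left) and KO (right). Filled points were called at adjusted p below 0.05. Nearly all points lie above 0, and Cox7a2l is the filled point lowest in both panels (-1.83 and -1.24).

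Other cell types differed along the same comparison. Macrophage and monocyte markers, with 12 of 13 measured, summed to 294 to 335 FPKM in WT non-TFH and 1600 to 2320 in WT TFH libraries. B cell markers, with 7 of 7 measured, summed to 704 to 747 FPKM in WT non-TFH and 259 to 287 in WT TFH libraries. Dividing-cell markers summed to 24.9 to 123 FPKM in WT non-TFH and 318 to 378 in WT TFH libraries. Erythroid markers reached 1960 FPKM in WT TFH library 2 and 55.9 and 225 in the other two. Platelet markers stayed at or below 7.47 FPKM and neutrophil markers at or below 119 in every library, while plasma cell markers ran from 17.7 to 106. Among the defining markers, Ppbp was at 0 or missing in all WT non-TFH, Pax5 in all KO non-TFH, Mpo in all WT TFH and Elane in all KO TFH libraries. The part of these markers in the subunit levels was not tested.

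Within TFH cells, libraries labelled KO had higher subunit transcripts than WT. Of 80 tested genes, 57 were called higher and 0 lower, where 15.8% of all tested genes were called higher and 15.0% lower, and the median log2 change was 0.48 against 0.04. Shares of all tested genes were counted in this main fit only, not in the alternatives that follow. The count of 57 fell to 31 with quantile normalization. In settings chosen after seeing the data it fell to 20 higher and 1 lower when each library's trend with transcript length was removed, and to 19 higher once unnamed loci per library entered the fit. In 66 of the 80 genes every KO library stood above every WT library, a share of 82.5%, where 20.2% of all tested genes did. The rise covered all 15 ATP synthase genes, 23 of 36 of complex I, 7 of 9 of complex III, 10 of 14 of complex IV and 2 of 4 of complex II. Macrophage markers summed to 1600 to 2320 FPKM in WT and 1000 to 1370 in KO TFH libraries, with 9 of 12 called lower and 3 higher. B cell markers summed to 259 to 287 FPKM in WT and 110 to 145 in KO libraries, with 4 of 6 tested called lower. Dividing-cell markers summed to 318 to 378 FPKM in WT and 537 to 664 in KO libraries, with 5 of 7 called higher. The 5 TFH markers summed to 734 to 965 FPKM in WT and 1010 to 1160 in KO TFH libraries, without overlap, with 2 called higher and 1 lower. Their part in the subunit changes was not tested.

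**Figure D3:**
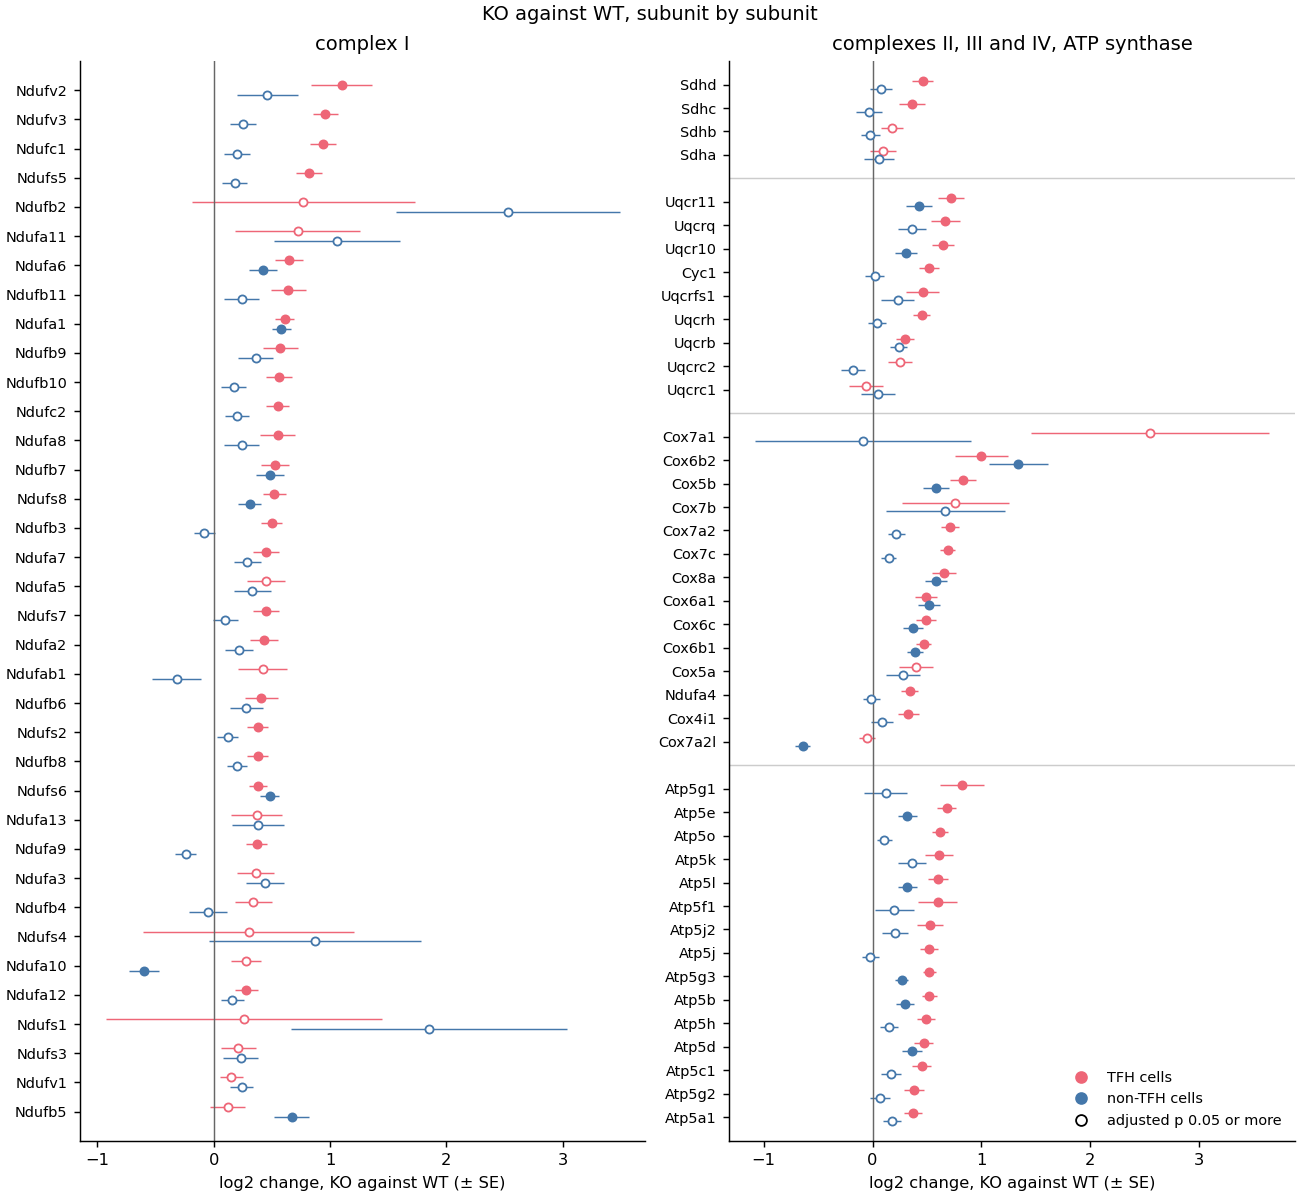
Log2 change of KO against WT libraries (x axis, with SE) for the 78 tested subunit genes, by complex and sorted by the change in TFH cells (red; non-TFH cells in blue). Filled points were called at adjusted p below 0.05. Red points lie mostly to the right of blue ones, with Ndufb5 and Cox6b2 among the exceptions.

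In complex I the largest called rises in TFH libraries labelled KO were those of Ndufv2 and Ndufv3, of the arm that oxidizes NADH. Ndufc1 of the membrane arm lay close behind. Ndufv2, a core subunit holding an iron-sulfur cluster, stood at 112, 187 and 100 FPKM in WT libraries, and at 304, 272 and 254 in KO TFH libraries, a log2 change of 1.10 ± 0.26 (adjusted p = 0.0075, limma). Ndufv3, an accessory subunit beside it, stood at 188, 184 and 159 against 344, 311 and 377 FPKM (0.96 ± 0.11, adjusted p = 6.1e-05, limma). The Ndufv2 call was lost with array weights and once unnamed loci per library entered the fit. Ndufa7, an accessory subunit, rose by 0.45 ± 0.11 in TFH libraries. The other core subunits of the NADH-oxidizing arm were not called. Ndufv1 changed by 0.15 ± 0.10. Ndufs1 changed by 0.26 ± 1.19, from 46.5 ± 0.765 to 56.0 ± 4.96 FPKM (SD, n = 3). WT non-TFH library 2 was listed at 0 for Ndufs1, with the others of that group at 40.5 and 39.1. The fit shares its spread over all groups, so that 0 widens the SE of Ndufs1 in TFH cells too. Every KO TFH library of Ndufs1 stood above every WT TFH library, so the missing call does not show an absent change. Of the 7 core subunits 4 were called higher, and of the 29 accessory ones 19. Ndufc1 (0.94 ± 0.11) and Ndufs5 (0.82 ± 0.11), accessory subunits of the membrane arm, were added to the description after their values were seen.

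Succinate dehydrogenase had the smallest median change of the 5 complexes, 0.27. Its membrane anchors were called higher in KO TFH libraries: Sdhd by 0.46 ± 0.10 (118, 107 and 115 against 150 and 163 FPKM, with 1 KO library missing) and Sdhc by 0.36 ± 0.12 (51.4, 57.1 and 46.2 against 75.4, 55.3 and 70.3). Its catalytic subunits were not: Sdha, the flavoprotein, changed by 0.10 ± 0.12 and Sdhb by 0.18 ± 0.10, with 1 WT TFH library missing for Sdhb. The KO TFH libraries of Sdhb (218, 227 and 254 FPKM) all stood above the measured WT ones (211 and 199), so its missing call does not show an absent change. The Sdhc call was lost in 15 of 25 alternatives, among them leaving out each of the 6 non-TFH libraries and most TFH libraries, with adjusted p from 0.0051 to 0.61 over all alternatives (limma), and the Sdhd call in 5 of 25. The anchors and the catalytic subunits were not tested against each other. One KO library of Sdhc lay within the WT range.

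In complex III, Uqcr11 and Uqcrq, small accessory subunits, rose most. Uqcr11 stood at 331, 285 and 239 FPKM in WT libraries, and at 407, 499 and 502 in KO TFH libraries (0.72 ± 0.12, adjusted p = 0.0011, limma), and Uqcrq rose by 0.67 ± 0.13. The electron-carrying subunits Cyc1, cytochrome c1, and Uqcrfs1, the Rieske protein, rose by 0.52 ± 0.09 and 0.46 ± 0.15. The scaffold proteins Uqcrc1 (-0.06 ± 0.16) and Uqcrc2 (0.25 ± 0.11) were not called.

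In complex IV most of the called rises were in ubiquitous subunits. Cox5b went from 362, 298 and 298 FPKM in WT to 548, 582 and 572 in KO TFH libraries (0.83 ± 0.12, adjusted p = 0.00035, limma), with no overlap. Of the 11 ubiquitous subunits 9 were called higher, Cox6a1, Cox6b1, Cox7a2, Cox8a, Ndufa4 and Cox4i1 among them with changes of 0.33 to 0.71. Cox5a (0.40 ± 0.16) and Cox7b (0.76 ± 0.49) were not called, and Cox7b ran from 185 to 539 FPKM among KO TFH libraries. Most isoforms of muscle, lung and testis were near the floor. Cox7b2, Cox8c and Ndufa4l2 were listed at 0 in all 12 libraries, Cox6a2 and Cox8b in 11 and Cox4i2 in 8. Of these isoforms, Cox6b2, known from testis, was called higher at a low level (2.54, 1.50 and 2.31 against 6.32, 4.57 and 4.79 FPKM). Cox7a1 was missing in 3 libraries and reached 16.6 FPKM at most. Cox7a2l was not called in TFH cells (-0.05 ± 0.07), with WT libraries at 90.1, 92.4 and 96.5 FPKM and KO libraries at 92.0, 85.7 and 90.9.

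All 15 ATP synthase genes were called higher in KO TFH libraries, with log2 changes of 0.37 to 0.82. Its 3 c subunit genes encode the same mature protein of the rotating ring. Atp5g1 stood at 219, 195 and 222 FPKM in WT libraries, and at 325, 334 and 477 in KO TFH libraries (0.82 ± 0.20, adjusted p = 0.009, limma), Atp5g2 rose from 236 ± 5.58 to 309 ± 33.1 and Atp5g3 from 410 ± 19.2 to 589 ± 22.5 FPKM (SD, n = 3). In non-TFH cells of WT mice their order was different: Atp5g2 led with 217 ± 6.61, Atp5g3 had 147 ± 3.17 and Atp5g1 67.1 ± 22.6 FPKM. Atp5e, the epsilon subunit of the F1 stalk, rose by 0.68 ± 0.09 in KO TFH cells.

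The promoters of the gene with the largest called rise in each complex in KO TFH libraries are shown, since Ets1 belongs to the ETS family, whose sites hold GGAA, and mitochondrial genes are known to carry ETS, NRF1 and YY1 motifs near their starts. Each is the 150 bases before the RefSeq start, from RefSeq on GRCm38.p6, all on the minus strand: Ndufv2 at chr17:66101560-66101709, Sdhd at chr9:50603850-50603999, Uqcr11 at chr10:80406822-80406971, Cox6b2 at chr7:4753095-4753244 and Atp5g1 at chr11:96075632-96075781. Capitals mark the ETS motif CCGGAA on either strand, which the longer form CCGGAAGT contains.
Ndufv2: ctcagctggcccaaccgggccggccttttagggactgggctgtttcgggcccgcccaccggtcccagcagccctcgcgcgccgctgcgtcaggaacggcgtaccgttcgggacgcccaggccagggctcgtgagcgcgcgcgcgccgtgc
Sdhd: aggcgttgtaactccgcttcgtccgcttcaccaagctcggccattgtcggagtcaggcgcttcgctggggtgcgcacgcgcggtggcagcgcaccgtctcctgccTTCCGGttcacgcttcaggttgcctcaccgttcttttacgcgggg
Uqcr11: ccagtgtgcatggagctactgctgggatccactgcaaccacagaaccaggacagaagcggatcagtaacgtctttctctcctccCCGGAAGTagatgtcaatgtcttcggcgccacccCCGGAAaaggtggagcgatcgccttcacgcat
Cox6b2: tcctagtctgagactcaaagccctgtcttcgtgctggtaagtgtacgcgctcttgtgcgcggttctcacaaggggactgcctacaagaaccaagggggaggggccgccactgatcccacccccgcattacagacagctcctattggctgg
Atp5g1: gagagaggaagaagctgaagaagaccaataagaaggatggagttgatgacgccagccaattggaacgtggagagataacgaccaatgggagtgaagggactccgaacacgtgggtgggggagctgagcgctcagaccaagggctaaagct
Sdhd has 1 copy on the reverse strand, at -45 from the start, and Uqcr11 has the long form at -66 and a short one at -32. The other 3 sequences hold none of the motifs searched, which says only that these letters are not in this window. RefSeq windows of 300 bases, 250 before to 50 after the start, were matched for 67 of the 86 genes. CCGGAA was in 36.1% of their 72 windows, against 28.0% of windows of all tested genes and 14.9% of all RefSeq windows, and CCGGAAGT in 6.94%, 8.33% and 3.89%. The NRF1 motif GCGCATGC was in 13.9%, 5.29% and 2.71%, and the YY1 motif AAGATGGCG in 9.72%, 3.17% and 1.40%, both searched on both strands. In KO TFH libraries, 21 of 25 members with CCGGAA were called higher with a median log2 change of 0.49, and 25 of 40 without it with a median of 0.51. Of all tested genes 15.8% were called higher, and those with CCGGAA were not counted apart. These shares are descriptions of letters, with no test.

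In non-TFH cells fewer subunits differed between labels. Of 80, 19 were called higher and 2 lower in KO libraries (11.8% and 8.58% of all tested genes), with a median of 0.23 against 0.03, and every KO library stood above every WT library for 39 (48.8%, where 29.0% of all tested genes did). By complex, 5 ATP synthase genes, 6 of complex I, 2 of complex III and 6 of complex IV were called higher, and 0 of complex II. Cox6b2 had the largest called rise, 1.34 ± 0.27 (adjusted p = 0.0046, limma), at a low level: 0.838 and 1.35 FPKM in 2 WT libraries, with the other WT library missing, and 2.89, 4.65 and 5.69 in KO libraries. That call was lost without WT non-TFH replicate 2 (adjusted p = 0.052, limma). Cox5b rose by 0.58 ± 0.12 (75.4, 71.5 and 94.0 against 134, 120 and 106 FPKM), Ndufa1, a membrane-arm subunit encoded on the X chromosome, by 0.58 ± 0.08 and Ndufb5 by 0.67 ± 0.15. Atp5d, the F1 delta subunit, rose by 0.36 ± 0.09, Atp5e by 0.32 ± 0.09, Uqcr11 by 0.43 ± 0.12 and Uqcr10 by 0.31 ± 0.10. The count of 19 fell to 9 without KO non-TFH replicate 1 and to 11 without WT non-TFH replicate 3. It became 8, with 6 lower, under length-dependent scaling, 12 with quantile normalization and 31 with array weights. Shares of all tested genes were not counted in these alternatives. Macrophage markers summed to 294 to 335 FPKM in WT and 421 to 444 in KO non-TFH libraries, with 6 of 12 called higher, and dividing-cell markers to 24.9 to 123 and 176 to 188, with 5 of 7 called higher. B cell markers summed to 704 to 747 FPKM in WT and 414 to 454 in KO libraries, with 1 of 6 tested called lower. Plasma cell markers summed to 17.7 to 18.5 and 43.0 to 57.0 FPKM, with 2 of 2 tested called higher, and 2 of 4 neutrophil markers were called higher. Their part was not tested.

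The 2 genes called lower in KO non-TFH cells were Cox7a2l and Ndufa10. Cox7a2l (ENSMUSG00000024248, chromosome 17, 83501918 to 83517330, mm10, minus strand, protein coding) stood at 327, 336 and 335 FPKM in WT libraries, and at 229, 197 and 214 in KO non-TFH libraries, a log2 change of -0.64 ± 0.07 (adjusted p = 6.7e-05, limma). Ndufa10 (ENSMUSG00000026260, chromosome 1, 92439010 to 92473860, mm10, minus strand, protein coding), an accessory subunit of the membrane arm, stood at 60.2, 68.2 and 64.4 against 50.1, 42.4 and 34.8 FPKM (-0.60 ± 0.13, adjusted p = 0.0061, limma). In TFH cells its KO libraries were at 102, 105 and 92.9 and its WT libraries at 84.1, 72.9 and 90.7 (0.28 ± 0.13, adjusted p = 0.13, limma). No KO library overlapped a WT library for either gene in non-TFH cells.

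The KO change itself differed between cell types for 13 of 80 subunits, all with the more positive log2 change in TFH cells, and 0 the other way (6.90% and 10.6% of all tested genes). The largest called differences per complex were Ndufa10 (0.88 ± 0.18), Cyc1 (0.49 ± 0.13), Cox7a2l (0.59 ± 0.10) and Atp5j (0.53 ± 0.11). Atp5j illustrates the pattern: it stood at 120, 128 and 125 FPKM in WT libraries, and at 129, 121 and 119 in KO non-TFH libraries, and at 520, 500 and 609 in WT and 763, 787 and 777 in KO TFH libraries. The remaining 67 were not called, which does not show that their changes were equal.

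**Figure D4:**
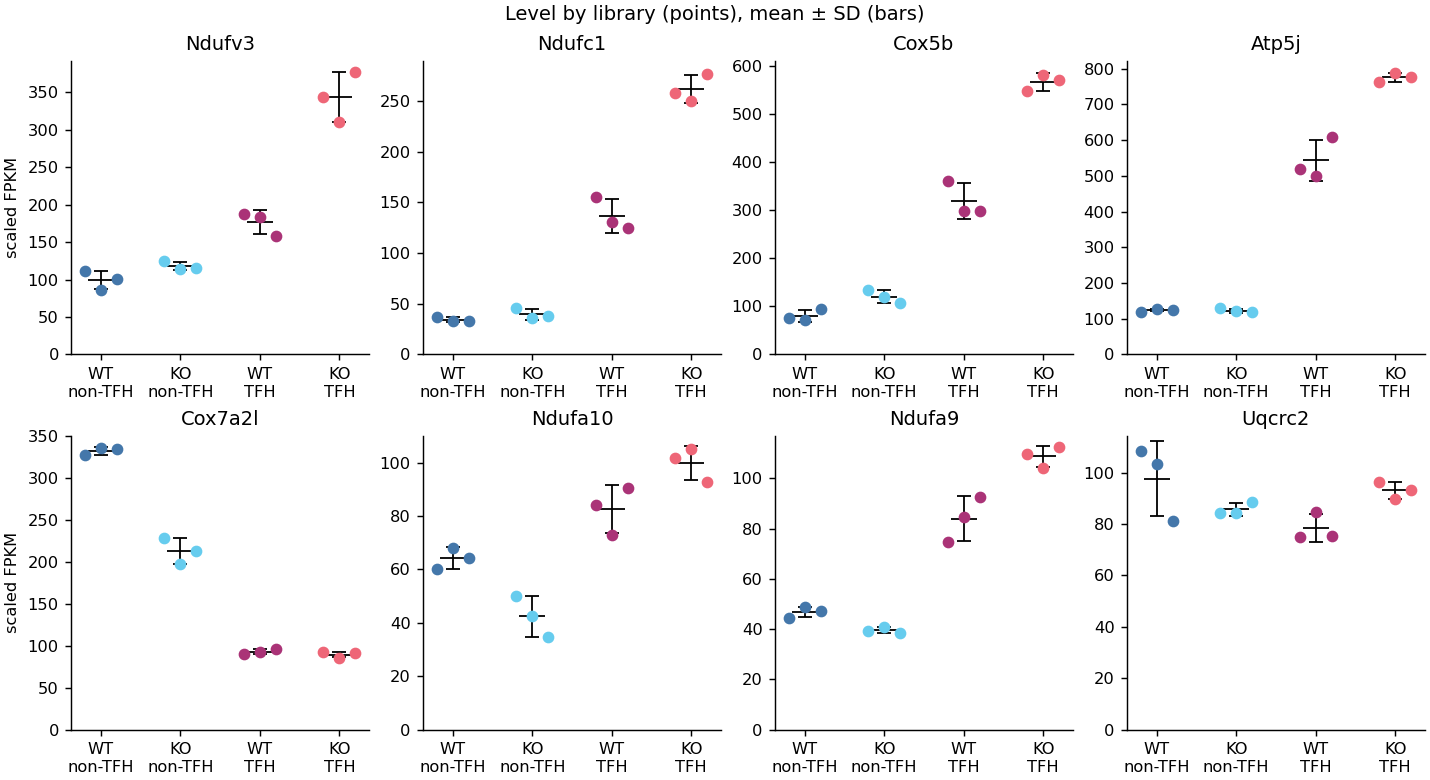
Scaled FPKM (y axis, from 0) of 8 subunit genes in each library with mean and SD of 3 libraries per group. Ndufv3, Ndufc1, Cox5b and Atp5j are highest in KO TFH libraries, Cox7a2l is highest in WT non-TFH libraries (327 to 336), Ndufa10 and Ndufa9 have their lowest values in KO non-TFH libraries, and Uqcrc2 lies between 75.0 and 109 FPKM throughout.

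Transcript length moved with the comparisons. The subunit genes are short, with a median longest coding transcript of 955 bases against 3064 over all tested genes, and 42 of 80 were at most 1000 bases. A joint entry took the longest coding transcript of any gene in it. The length used for Ndufb8, Ndufb9, Ndufs5 and Cox6b1 may therefore be a neighbour's. Their own longest transcripts include 704 bases for Ndufb9 and 618 for Cox6b1. Other tested genes of at most 1000 bases had a median log2 change of 0.36 in KO against WT TFH cells, while the 42 subunits of that length had 0.53, and other genes over 4000 bases had -0.05. For TFH against non-TFH cells in WT mice the short others had 0.98, the short subunits 1.47 and the long others -0.47. In non-TFH cells KO against WT gave 0.18 and 0.26 for the short groups. When each library's trend with length, fitted without the subunit genes, was removed (an alternative chosen after seeing the data), the median change in KO against WT TFH cells was 0.18. The number of unnamed assembled loci per library, the other setting chosen after seeing the data, ran from 12338 to 25171 in WT and from 7855 to 10233 in KO TFH libraries. The called rise of 9 genes in KO TFH cells was kept under every alternative that gave them a value: Ndufc1, Ndufs5, Ndufv3, Cox5b, Cox6b1, Cox7a2, Cox7c, Atp5b and Atp5o. Ndufs5 and Cox6b1, as joint entries, had no value when joint entries were left out. Under length scaling they may have been corrected at a neighbour's length, so that setting checks them less well. Under length scaling 48 genes were called higher and 10 lower between cell types in WT mice, and 55 and 9 in KO mice. The shares of all tested genes called under length scaling were not counted, so these counts have no background beside them.

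**Figure D5:**
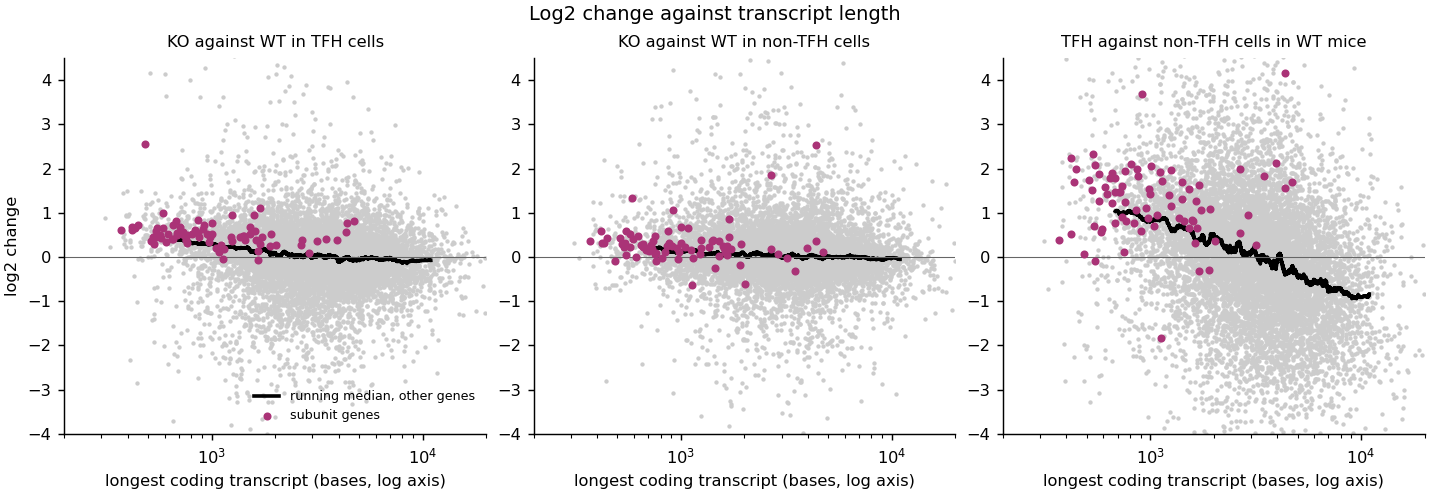
Log2 change (y axis) against the longest coding transcript in bases (x axis, log scale) for tested genes (grey, running median in black) and subunit genes (purple) in 3 comparisons. The black line descends with length in the left and right panels, and most purple points lie at the short end. Points outside the axes are not drawn.

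Other mitochondrial gene lists were counted in the same fit, where 15.8% of all tested genes were called higher and 15.0% lower in TFH cells. In KO against WT TFH cells, 32 of 77 mitochondrial ribosome genes were called higher and 0 lower (median 0.42), 12 of 42 assembly factors and 0 (0.24), 7 of 18 import genes and 0 (0.45), 7 of 12 carriers of electrons and ATP and 0 (0.52), and 1 of 8 ubiquinone synthesis genes and 0 (0.24). The citric acid cycle had 5 of 14 higher and 1 lower: Cs, citrate synthase, rose by 0.71 and Mdh2, malate dehydrogenase, by 0.52, while Idh2 fell by 0.58. Of 10 pyruvate dehydrogenase genes and carriers, 2 were higher and 1 lower. Glycolysis, the other route to ATP, had 10 of 16 higher and 1 lower (0.65). In KO against WT non-TFH cells these lists gave 5 higher and 2 lower, 3 and 0, 2 and 0, 3 and 0, 0 and 0, 3 and 2, 2 and 1, and 2 and 4, in the same order, where 11.8% of all tested genes were called higher and 8.58% lower.

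Known regulators of mitochondrial genes had few calls between labels. Of 14 tested, 0 were called higher and 1 lower in KO TFH cells (median -0.18), and 0 higher and 2 lower in KO non-TFH cells. Among all tested genes 15.8% were called higher and 15.0% lower in TFH cells and 11.8% and 8.58% in non-TFH cells, so counts this small in 14 genes do not set the regulators apart. The one lower in TFH cells was Ppargc1b, a coactivator of mitochondrial genes, at 5.34 FPKM in WT and 2.44 in KO (mean of 3). Gabpa, the ETS-family activator of respiratory genes, changed by -0.06, Nrf1 by -0.20 and Tfam, which maintains mitochondrial DNA, by -0.42 in TFH cells, none called. Between cell types in WT mice 2 were higher and 7 lower (35.2% and 32.3% of all tested genes): Nrf1 rose by 0.65 and Gabpb1 by 0.69, while Yy1 fell by 2.39. Esrra, a nuclear receptor read together with Mir6990, was listed at 0 in every TFH library and had a mean of 13.5 FPKM in WT non-TFH cells. Ppargc1a stayed below the filter.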

How the data were processed

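The authors deposited 1 gene table of FPKM values per library, with confidence bounds and fit status, from 12 stranded mRNA libraries per the labels' protocols. Per the submitters' processing notes, FastQC, cutadapt, TopHat2, Bowtie2, Cufflinks and Cuffdiff were used with mm10. Versions were not given in the sources used here. FPKM are not counts, so the total fragments are unknown, and depth was estimated from the deposited bounds. Precision is limited by 3 libraries per group.

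Entries holding several symbols were joined across libraries where needed: 22451 genes stood alone and 785 were joint. Failed entries were set to missing, and limma used the remaining libraries. FPKM were scaled by the median ratio over 7089 features (factors 0.856 to 1.141). All 12 libraries entered one limma 3.58.1 fit (R 4.3.3; group means, variance trend, robust) of log2(FPKM + 1) over the 11101 features that reached 1 FPKM in 3 or more libraries. Such fold changes understate the change of low genes. Adjustment was Benjamini-Hochberg over all of them, per comparison (5 in all), at 0.05. In data simulated for KO against WT in TFH cells, with 200 of 9537 genes changed 2-fold, 83.5% were recovered and 4.57% of calls were false. The changed genes were drawn only from the better expressed ones, and no cell-type difference or length trend was simulated. These shares therefore do not cover changes below 2-fold, such as most subunit changes called between labels.

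Members and lists were chosen with earlier results of these data known. Per complex, the text names the 2 largest called rises and falls between labels in each cell type, the largest in each other comparison, isoform groups, succinate dehydrogenase, and members at 0 or missing. Alternatives covered scaling, pseudocount, filter, array weights, replicate numbers, joint entries and single libraries. Lengths came from GENCODE M21, and promoters from RefSeq. Proteins of the c subunit genes, planned for display, are not shown.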

Additional observations from a re-analysis of the deposited data

Results flagged for a closer look

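The KO change differed between TFH and non-TFH cells for 13 subunit genes, by the interaction term of the limma fit. Each value is the log2 KO change in TFH cells minus that in non-TFH cells, over all 12 libraries. In complex I the differences were 0.88 for Ndufa10, 0.74 for Ndufc1, 0.71 for Ndufv3, 0.63 for Ndufs5, 0.61 for Ndufa9 and 0.59 for Ndufb3. In complex III they were 0.49 for Cyc1 and 0.41 for Uqcrh, and in complex IV 0.59 for Cox7a2l, 0.54 for Cox7c and 0.49 for Cox7a2. In ATP synthase they were 0.53 for Atp5j and 0.51 for Atp5o.

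These genes did not all get to their difference the same way. For Cox7a2l the KO change was -0.05 in TFH and -0.64 in non-TFH cells. For Ndufa10 it was 0.28 and -0.60, of which only the fall was called. For Ndufa9 it was 0.37 and -0.24, of which only the rise was called. For Cox7c it was 0.69 and 0.15, for Cyc1 0.52 and 0.02 and for Atp5j 0.52 and -0.02, with no called change in non-TFH cells. Of the 13 genes, 5 kept their call under every alternative that gave them a value: Ndufa9, Ndufa10, Cox7c, Cox7a2l and Atp5o.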

How the results depend on the processing

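The length-dependent scaling, the unnamed-loci covariate and single zeros set to missing were chosen after seeing the data. The cause of each shift below was not tested. Shares of all tested genes were counted in the main fit only, so the changed counts below have none beside them. For KO against WT in TFH cells, the 57 higher calls became 31 with quantile normalization, 20 with length-dependent scaling (with 1 lower) and 19 with the unnamed-loci covariate, and ranged from 48 to 56 without 1 library. In non-TFH cells the 19 became 12 with quantile normalization, 31 with array weights and 8 with length scaling (6 lower in place of 2), and 9 to 21 without 1 library. For TFH against non-TFH cells in WT mice the 3 lower calls became 5 (quantile), 10 (length) and 1 (unnamed loci), and in KO mice the 2 became 1 (no scaling), 4 (quantile), 9 (length) and 1 (unnamed loci), with 1 to 2 without 1 library. For the difference between the KO changes, the 13 became 8 (quantile) and 7 (unnamed loci), and the 0 lower calls became 1 with length scaling and 0 to 1 without 1 library. Of the 57 called genes in TFH cells, 28 kept their call when the 3 settings chosen after seeing the data were left aside, and 9 under all settings that gave them a value. Without scaling the median of all tested genes moved to 0.37 in WT and 0.27 in KO mice for TFH against non-TFH cells.

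Median changes of the subunits also moved: KO against WT TFH to 0.31 (quantile) and 0.18 (length), non-TFH to 0.03 (length), TFH against non-TFH to 0.53 in WT and 0.71 in KO (length), and the difference to 0.11 (quantile) and 0.16 (length).

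Signs turned as follows. With length scaling, KO against WT TFH gave -0.02 for Atp5g2, -0.07 for Cox4i1, -0.12 for Ndufa4, -0.05 for Ndufa7 and -0.2 for Uqcrb, and non-TFH -0.06 for both Atp5e and Uqcr10. TFH against non-TFH in WT gave -0.61 for Atp5e, -0.81 for Atp5g2 and -0.1 for Cox4i1, and in KO -0.44 for Atp5e, -0.65 for Atp5g2, -0.02 for Cox4i1, -0.73 for Cox6b2 and -0.45 for Ndufb5. With quantile normalization Uqcrb was at -0.0 in KO against WT TFH, and Atp5g2 at -0.38 in WT and -0.21 in KO between cell types. With the unnamed-loci covariate Cox4i1 was at -0.01 in KO against WT TFH, and without scaling Uqcrc2 was at 0.07 between cell types in WT.

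Correlations of deviations between libraries of equal number lay between -0.033 and 0.032 for the cell types of one genotype. Between genotypes they lay between 0.002 and 0.061. Libraries of unequal number were not compared, so these values cannot tell whether equal numbers share a mouse. With the replicate number as a block, 54, 16, 70, 72 and 13 genes were called higher in the 5 comparisons, and with the block within genotype 68, 72 and 11 in the last 3.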

Other observations

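A few subunits varied within a group more than the others. Ndufs4, an accessory subunit of complex I, ran from 30.5 to 296 FPKM among WT non-TFH libraries and from 71.6 to 457 among KO non-TFH libraries, a ratio of 9.72 and 6.39 between the highest and the lowest. Ndufa11 ran from 10.3 to 45.5 FPKM in KO non-TFH and from 109 to 253 in KO TFH libraries. Cox7b was at 117, 110 and 291 FPKM in WT TFH and 185, 185 and 539 in KO TFH libraries, with library 3 the highest in both. Ndufa13, another accessory subunit, was at 87.1, 46.4 and 45.0 FPKM in WT non-TFH libraries.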
